A study of Mus musculus with 4 samples.

Results

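The SIRP and Siglec receptors described here are *Sirpa*, *Sirpb1a*, *Sirpb1b*, *Cd33*, *Siglece*, *Siglec1* and *Siglech*, together with *Cd47*, the ligand of SIRPA. Their members were chosen as all non-control probes that carry one of these 8 gene names in the array files, which gave 16 of the 39429 probes. All 8 names were found, and they had been chosen with earlier results of these data known. Cochlear RNA of 4 groups of mice, wild-type or *Prestin*-*hDTR* and each with or without diphtheria toxin (DT), was hybridised to Agilent arrays on 1 slide, with 1 array for each group. All mice were of the C57BL/6J strain, labelled B6J, and 5 weeks old, and each array holds the pooled RNA of 8 cochleae from 4 females and 4 males. DT-treated mice had received 50 μg/kg of the toxin 7 days earlier, and the other pair of groups received none according to its titles and treatment labels, although the protocol text of the labels gives DT for all 4 samples. *Prestin*-*hDTR* mice, labelled OHC-TRECK, carry a transgene in which the promoter of prestin (*Slc26a5*) drives a human DT receptor in outer hair cells (OHCs), and the mice came from a single transgenic line. Wild-type mice do not carry it. The toxin kills cells that carry this receptor, and the comparisons ask how cochlear RNA differed after OHC depletion, with the transgene alone and with DT alone.

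SIRP and Siglec proteins are paired receptors of myeloid cells, in which closely related members pass opposite signals. SIRPA carries inhibitory tyrosine motifs (ITIMs) that recruit the phosphatases SHP-1 and SHP-2, and its binding to CD47 on a neighbouring cell restrains phagocytosis. SIRPB1 has a short cytoplasmic tail and signals through the activating adaptor DAP12 (*Tyrobp*), whose tyrosine motif (ITAM) recruits the kinase SYK. Siglecs bind sialic acids on cell surfaces: Siglec-E is inhibitory, Siglec-H and mouse CD33 pair with DAP12, and Siglec-1 (CD169) is an adhesion receptor of some tissue macrophages. Macrophages, both resident and recruited, carry such receptors in the cochlea. Which cells the signals below came from was not measured.

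Levels are given as a percent of the 75th percentile of the same array, each with the error that the scanner software estimated for that spot (1 SD). Every member probe has 1 spot per array, and with 1 array per group there is no replicate check and no test. Comparing 2 arrays took a signal well above background on either of them, and a change of 2-fold or more was called raised or lowered. Where the lower signal was not well above background, it was set to the lowest such signal of its array unless its own was higher, and the fold is written as at least N-fold. Probes differ in binding, so that levels of different probes are not compared, and the summed levels and brightest genes of marker lists below only describe the probes that carry each list. In RNA of whole cochlea, fewer cells of a type and less RNA per cell cannot be told apart. Of the 16 member probes, 11 exceeded the background clearly on each of the 4 arrays and 3 on 3 arrays, and both *Siglec1* probes on none.

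The DT-treated *Prestin*-*hDTR* array was checked first against OHC markers. *Ocm*, which encodes the calcium-binding protein oncomodulin, stood at 2051% and 1850% in wild-type mice without and with DT, and 2035% and 392.7% in *Prestin*-*hDTR* mice without and with DT, 5.18-fold lower than in untreated *Prestin*-*hDTR* mice. *Strc*, *Chrna9* and *Chrna10* were also lowered 2-fold or more under each of the other 3 arrays, where 0.291% of all genes were. The other 2 of the 6 OHC markers were not, among them *Slc26a5* itself, whose dim probe read 3.37%, 4.51%, 3.01% and, not well above background, 1.49%.

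The activating SIRPs are shown first by the probes that measured them, because their sequences decide which genes a signal can come from. *Sirpb1a*, *Sirpb1b* and another gene, *Sirpb1c*, lie in a cluster on chromosome 3 and are close paralogs. The array files list accessions of 2 or more of these genes for 4 of the 5 *Sirpb1* probes, so that a signal on them cannot be assigned to a single gene. Probes A_55_P1955305, A_55_P1955308 and A_51_P176156 list all 3 genes, A_55_P2033041 lists *Sirpb1b* and *Sirpb1c*, and A_55_P2158592 lists none of their RefSeq transcripts. No run of 20 bases of any of these probes recurs in another probe of the array. The probes below are printed from the array files, the first 3 whole or nearly so and the others as a stretch of 30 bases, with their positions on the mm9 build (exon annotation was not used here). In A_55_P1955308 1 frame ran without a stop for 18 codons up to the stop codon in capitals. Positions are those of the whole probes of 60 bases, and 59 bases of A_55_P1955308 are printed.
*Sirpb1b* A_51_P176156, chr3:15542342-15542401, minus strand: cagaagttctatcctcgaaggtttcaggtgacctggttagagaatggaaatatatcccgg
*Sirpb1a* A_55_P1955305, chr3:15410412-15410471, minus strand: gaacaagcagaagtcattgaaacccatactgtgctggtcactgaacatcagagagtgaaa
*Sirpb1a* A_55_P1955308, chr3:15378994-15379053, minus strand: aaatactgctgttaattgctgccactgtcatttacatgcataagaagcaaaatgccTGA
*Sirpb1b* A_55_P2033041, chr3:15495798-15495857, minus strand, first 30 bases: ctctgcatatgtattgctatcccagaactt
*Cd33* A_66_P109986, chr7:50783849-50783908, minus strand, first 30 bases: cttgcccatgagtaagtacatgtatgaagg

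In DT-treated *Prestin*-*hDTR* mice, 3 member probes were raised 2-fold or more over each of the other 3 arrays: A_55_P2033041 of *Sirpb1b*, A_55_P1955308 of *Sirpb1a* and A_66_P109986 of *Cd33*. Among all 25061 probes compared, 1.08% were raised in this way and 0.259% were lowered under each of the other 3 arrays, as no member was. By the same count, no member probe was raised on either wild-type array or on the untreated *Prestin*-*hDTR* array over its 3 counterparts. Of all 39429 probes, 126 to 196 were, so few that a count of 0 shows nothing about the members. Only A_55_P1955305 of *Sirpb1a*, 1 member probe, was lowered on the untreated *Prestin*-*hDTR* array under its 3 counterparts, as were 33 of all 39429 probes. The 3 comparisons share the DT-treated *Prestin*-*hDTR* array, and a high reading on that array alone would enter all of them.

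The *Sirpb1b* probe A_55_P2033041 read 2.52% ± 0.54 and 4.38% ± 0.77 in wild-type mice without and with DT, and 1.97% ± 0.38 and 12.2% ± 1.4 in *Prestin*-*hDTR* mice without and with DT. The last array was the highest, and DT-treated wild-type lay above both untreated arrays. DT-treated *Prestin*-*hDTR* mice were 6.19-fold above untreated *Prestin*-*hDTR* mice (log2 ratio 2.63 ± 0.33, spot error), 2.79-fold above DT-treated wild-type (1.48 ± 0.30) and 4.85-fold above untreated wild-type mice (2.28 ± 0.35). With the background corrected by normexp, which adds an offset and shrinks ratios of dim probes, the 3 folds were 3.27, 2.07 and 2.71.

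The *Sirpb1a* probe A_55_P1955308, printed above up to a stop codon, read 2.85% ± 0.45, 4.68% ± 0.67, 2.83% ± 0.38 and 12.9% ± 1.4 in the same order of groups. The order of the arrays was that of the *Sirpb1b* probe, and both untreated arrays lay within each other's spot error. DT-treated *Prestin*-*hDTR* mice were 4.57-fold above untreated *Prestin*-*hDTR* mice (2.19 ± 0.25), 2.76-fold above DT-treated wild-type (1.46 ± 0.26) and 4.54-fold above untreated wild-type mice (2.18 ± 0.28), or 3.20-fold, 2.20-fold and 2.81-fold with normexp. As the 2 probes list shared paralogs, they are not separate evidence for *Sirpb1a* and *Sirpb1b*.

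The other *Sirpb1* probes were also highest in DT-treated *Prestin*-*hDTR* mice. Probe A_55_P1955305 read 2.85%, 4.08%, 1.42% (not well above background) and 7.00%. It was at least 4.94-fold above untreated *Prestin*-*hDTR* and 2.45-fold above untreated wild-type mice, but 1.72-fold above DT-treated wild-type mice (0.78 ± 0.31), and with normexp at least 2.54-fold above untreated *Prestin*-*hDTR* and 1.77-fold above untreated wild-type mice. Probe A_55_P2158592 read 3.86%, 4.20%, 3.81% and 6.36%, 1.67-fold above untreated *Prestin*-*hDTR* mice (0.74 ± 0.27). Probe A_51_P176156 of *Sirpb1b* read 2.75%, 1.39% (not well above background), 2.51% and 4.39%, 1.75-fold above untreated *Prestin*-*hDTR* mice (0.81 ± 0.33) and at least 1.95-fold above DT-treated wild-type mice. Without a floor for dim signals, the last ratio was 3.16-fold and would be called raised. The 5 probes therefore agree on which array was highest and differ on the size, from 1.67-fold to 6.19-fold over untreated *Prestin*-*hDTR* mice.

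*Cd33* encodes a sialic acid-binding receptor of myeloid cells. Its probe read 6.0% ± 0.68 and 5.25% ± 0.69 in wild-type mice without and with DT, and 5.27% ± 0.58 and 13.6% ± 1.4 in *Prestin*-*hDTR* mice without and with DT. The first 3 arrays lay within their combined spot errors of each other and the last stood apart. The probe was 2.60-fold above DT-treated wild-type mice (1.38 ± 0.24) and 2.27-fold above untreated wild-type mice (1.18 ± 0.22). With normexp, the last ratio fell to 1.92-fold, so that *Cd33* was then not raised 2-fold over each of the other 3 arrays.

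**Figure D1:**
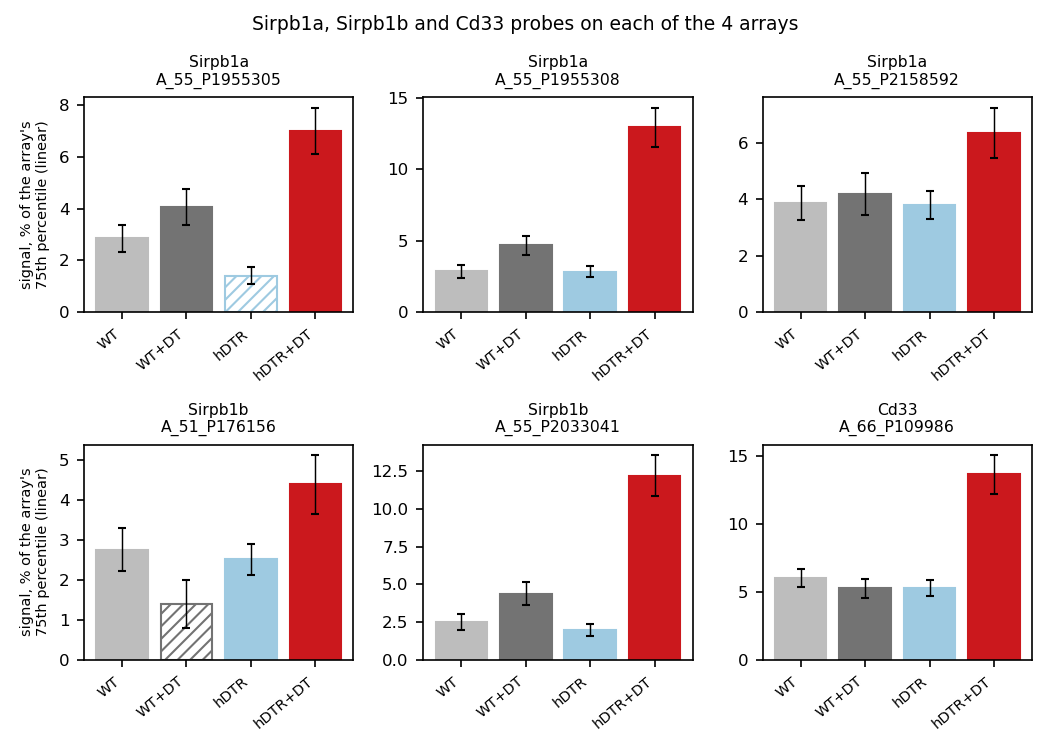
Signal of the 5 *Sirpb1a* and *Sirpb1b* probes and the *Cd33* probe (linear axis from 0, percent of the 75th percentile of the array) by genotype (WT for wild-type, hDTR for *Prestin*-*hDTR*) without and with DT. Bars are single arrays, error bars are the software's spot error (1 SD) and hatched bars are not well above background. The DT-treated *Prestin*-*hDTR* bar is the highest in all 6 panels.

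The inhibitory members *Sirpa* and *Siglece*, each read by a single probe, did not follow, which says nothing of inhibitory receptors outside the members. *Sirpa* (chr2:129457873-129457932 on mm9, plus strand) read 186.1% ± 18.6 and 182.4% ± 18.3 in wild-type mice without and with DT, and 174.1% ± 17.4 and 193.5% ± 19.4 in *Prestin*-*hDTR* mice without and with DT. Its 4 readings lay within their spot errors, with 1.11-fold between DT-treated and untreated *Prestin*-*hDTR* mice (0.15 ± 0.20). *Siglece* (chr7:50906669-50906728, minus strand) read 75.1% ± 7.5, 70.5% ± 7.1, 68.5% ± 6.9 and 73.3% ± 7.3. It was likewise within spot error on all 4 arrays, with a log2 ratio of 0.10 ± 0.20 over untreated *Prestin*-*hDTR* mice. One array per group cannot show that either level was the same in the mice.

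*Cd47*, the ligand through which cells restrain uptake by SIRPA-bearing phagocytes, had 2 bright probes that were highest in DT-treated *Prestin*-*hDTR* mice without reaching 2-fold. A_51_P221014 read 383.1%, 405.1%, 375.4% and 495.1%, 1.32-fold above untreated *Prestin*-*hDTR* mice (0.40 ± 0.20). A_55_P2182483 read 455.4%, 493.0%, 431.9% and 575.8%, 1.33-fold above (0.41 ± 0.20). The probes agree to within their error, and each ratio is about 2 spot errors from 0. A dim further probe, A_55_P2046822, went the other way, with 2.11%, 3.28%, 4.35% and 1.77% (not well above background), at least 1.89-fold below untreated *Prestin*-*hDTR* mice. It lies farther along the listed transcript, at base 3967 against 1083 and 888.

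*Siglech*, a marker of plasmacytoid dendritic cells that microglia also express, had 3 probes that were lowest in DT-treated *Prestin*-*hDTR* mice, again below 2-fold. A_55_P2141008, for which the files list no RefSeq transcript of *Siglech*, read 141.5% ± 14.2, 110.7% ± 11.1, 116.1% ± 11.6 and 72.3% ± 7.3, a log2 ratio of -0.68 ± 0.20 against untreated *Prestin*-*hDTR* and -0.97 ± 0.20 against untreated wild-type mice. A_55_P2165790 read 33.1%, 33.1%, 30.6% and 20.8%, a log2 ratio of -0.55 ± 0.21 against untreated *Prestin*-*hDTR* mice. The brightest probe, A_55_P2141013, read 2833%, 2618%, 2545% and 2320%, and its log2 ratio of -0.13 ± 0.20 lay within spot error. Its last 30 bases are shown because they bear on what it may bind, with a repeat of AAAG in capitals.
*Siglech* A_55_P2141013, chr7:63034088-63034147, plus strand, last 30 bases: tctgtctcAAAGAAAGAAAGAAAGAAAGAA
Of all non-control probes, 6 hold 4 or more such units in a row. A run of 15 bases of this probe recurs in 15 other probes of the array, and a run of 20 bases in 2. Whether it read other transcripts was not tested.

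Neither *Siglec1* probe stood well above background anywhere, and no fold is given. Its readings, from 0.275% to 2.47%, lay close to or under the lowest signal accepted as above background, which was 1.19% to 2.30% among the arrays.

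**Figure D2:**
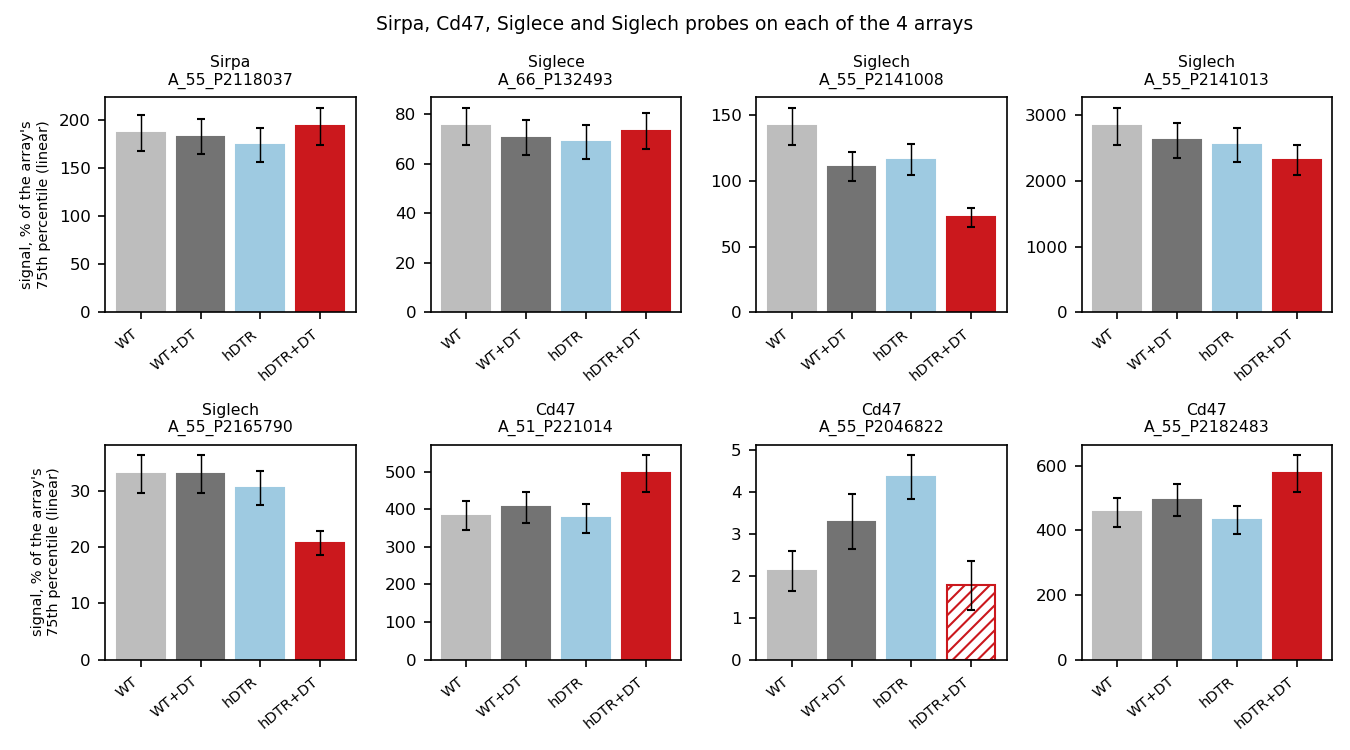
Signal of the *Sirpa*, *Siglece*, *Siglech* and *Cd47* probes (linear axis from 0, percent of the 75th percentile of the array) on the 4 arrays, drawn as for *Sirpb1* with spot errors and hatching for signals not well above background. *Sirpa* and *Siglece* differ by less than their spot errors, the 3 *Siglech* probes are lowest and the 2 bright *Cd47* probes highest in DT-treated *Prestin*-*hDTR* mice.

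Over untreated *Prestin*-*hDTR* mice, 4 of the 14 member probes compared were raised in DT-treated *Prestin*-*hDTR* mice, against 2.49% of all probes, and 0 were lowered, against 1.35%. These were the 3 probes named first and A_55_P1955305, the only one that is a lower bound. Over DT-treated wild-type mice, 3 were raised against 1.41% of all probes and 0 lowered against 1.83%. Over untreated wild-type mice, 4 were raised against 1.96% and 0 lowered against 1.95%. The median log2 ratio of the 14 probes was 0.41, 0.26 and 0.35 in these comparisons, beside 0.00, 0.01 and -0.03 for all probes. As the members were chosen with earlier results of these data known, these counts and medians do not test them. The raised *Sirpb1* probes list shared paralogs and are not separate evidence.

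The transgene alone and DT alone were compared in the same way. Between the untreated mice of both genotypes, 1 member probe was raised, against 1.01% of all probes, and 1 was lowered, against 2.32%. The raised one was the dim *Cd47* probe (2.06-fold), and the lowered one was A_55_P1955305 of *Sirpb1a* (at least 2.01-fold), each below 5% of the 75th percentile, and neither passed 2-fold with normexp. Between DT-treated and untreated wild-type mice, 0 members were raised, against 1.46% of all probes, and 0 lowered, against 1.09%. Of the 5 *Sirpb1* probes, 3 were higher in DT-treated wild-type mice by more than their spot error, A_55_P2033041 by 1.74-fold (0.80 ± 0.40), A_55_P1955308 by 1.64-fold (0.72 ± 0.31) and A_55_P1955305 by 1.43-fold (0.52 ± 0.36). A_55_P2158592 had a log2 ratio of 0.12 ± 0.34, and A_51_P176156 was lower, at 1.39% (not well above background) against 2.75%. *Cd33* was not higher there (-0.19 ± 0.25). On the same array, neutrophil markers had a median log2 ratio of 0.63, B cell markers of 1.07 and erythroid markers of 1.79 over untreated wild-type mice, macrophage markers of -0.08 and resident microglia-type markers of -0.12, and their part in the *Sirpb1* ratios was not tested.

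**Figure D3:**
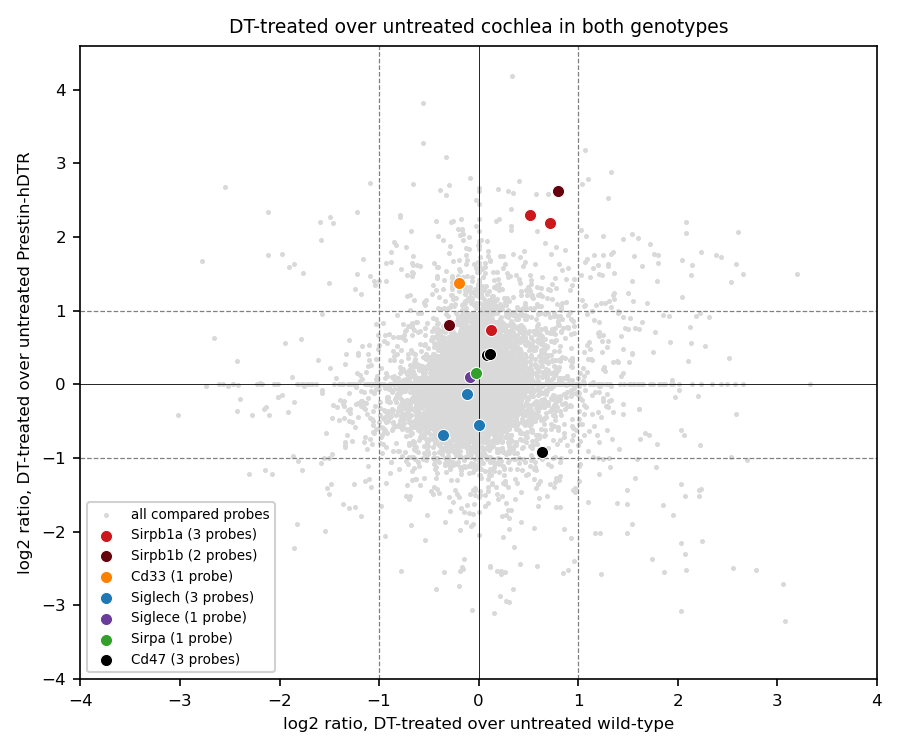
Log2 ratio of DT-treated over untreated mice in wild-type (x axis) and in *Prestin*-*hDTR* mice (y axis) for all probes compared in both (grey) and the 14 member probes (coloured by gene). Dashed lines mark 2-fold, and 3 *Sirpb1* probes lie at 2.19 to 2.63 on the y axis and 0.52 to 0.80 on the x axis, while *Cd33* lies at 1.37 and -0.19.

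The adaptors and kinases that carry the signal of activating receptors were taken from a list of 14 genes, of which 12 were measured. *Tyrobp*, which encodes the DAP12 adaptor, read 234.8% and 240.4% in wild-type mice without and with DT, and 195.5% and 443.1% in *Prestin*-*hDTR* mice without and with DT. It was highest in the last, 2.27-fold over untreated *Prestin*-*hDTR* mice but 1.84-fold and 1.89-fold over DT-treated and untreated wild-type mice. *Fcer1g*, the adaptor FcRγ, read 146.5%, 166.1%, 120.6% and 346.0%, and it alone of the list was raised 2-fold or more over each of the other 3 arrays (1.22% of all genes were), by 2.87-fold, 2.08-fold and 2.36-fold. *Vav1*, an exchange factor, was raised over untreated *Prestin*-*hDTR* mice, by 2.17-fold, but was 1.45-fold above DT-treated wild-type mice. *Syk*, the kinase that binds phosphorylated DAP12, was 1.71-fold above untreated *Prestin*-*hDTR* mice but 1.68-fold below DT-treated wild-type mice (log2 ratio -0.75). Of the 12 genes, 4 were raised over untreated *Prestin*-*hDTR* mice (2.71% of all genes were), and the median log2 ratio was 0.74 there and 0.09 over DT-treated wild-type mice, beside 0.00 and 0.01 for all genes.

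All 9 genes on the inhibitory side and around SIRPA were measured. *Ptpn6*, which encodes SHP-1, read 49.0%, 56.1%, 46.1% and 67.3%, 1.46-fold above untreated *Prestin*-*hDTR* mice, and *Inpp5d*, which encodes the lipid phosphatase SHIP1, had a log2 ratio of 0.75. *Ptpn11*, which encodes SHP-2, had one of -0.19. *Socs3*, a feedback inhibitor of cytokine signalling, read 77.7%, 76.4%, 76.7% and 164.6%. It was the only gene of this list raised 2-fold over each of the other 3 arrays (1.22% of all genes were), by 2.15-fold, 2.16-fold and 2.12-fold. The median of the list over untreated *Prestin*-*hDTR* mice was 0.37, beside 0.00 for all genes.

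**Figure D4:**
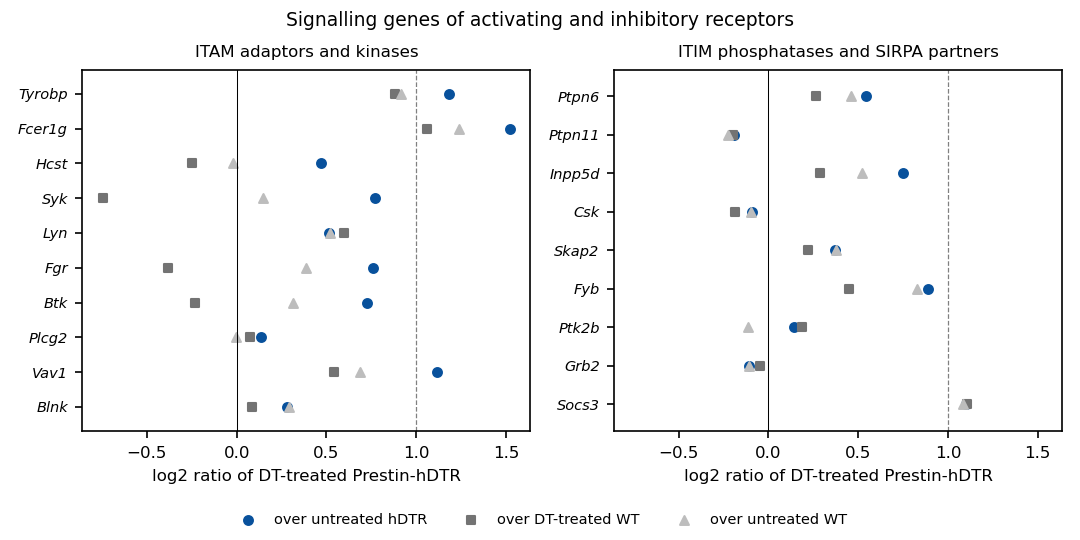
Log2 ratio of DT-treated *Prestin*-*hDTR* mice over each of the other 3 arrays for genes of activating adaptors and kinases (left) and of inhibitory phosphatases and SIRPA partners (right), 1 probe per gene, with the dashed line at 2-fold. *Fcer1g* and *Socs3* lie beyond it with all 3 symbols, while *Tyrobp* and *Vav1* do so over untreated *Prestin*-*hDTR* mice only.

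Of 7 other genes of the SIRP and Siglec families, 4 were measured, the Siglecs *Cd22*, *Mag*, *Siglecf* and *Siglecg*, and no probe is named for *Sirpb1c* or *Sirpd*. Of these 4, 0 were raised over each of the other 3 arrays, where 1.22% of all genes were, and 0 lowered, where 0.291% were, so that the count shows nothing about them. *Mag*, the Siglec of myelin, had a log2 ratio of -0.17 over untreated *Prestin*-*hDTR* mice. Of 31 genes of other paired immune receptors, 21 were measured and 0 were raised over each of the other 3 arrays, although 4 were over untreated *Prestin*-*hDTR* mice, where 2.71% of all genes were, and the median was 0.57 there. These 4 were *Trem2*, *Clec7a*, *Clec4d* and *Lilrb4a* (2.04-fold to 2.57-fold). In the same comparison 1 was lowered, *Cd300a* (log2 ratio -1.07), as were 303 of all 21431 genes compared. *Treml1*, a receptor gene of platelets, was 14.1-fold and 6.93-fold lower than in DT-treated and untreated wild-type mice, and *Cd300lf* 2.14-fold and 2.47-fold lower. Against untreated *Prestin*-*hDTR* mice, *Treml1* was 1.12-fold higher (3.15% against 2.81%) and *Cd300lf* 1.57-fold lower. Untreated *Prestin*-*hDTR* mice were themselves 7.75-fold below untreated wild-type mice for *Treml1*, and 1.57-fold below for *Cd300lf*. All were named after their values were seen. *Trem2*, a DAP12-coupled receptor of macrophages, was 2.23-fold, 2.04-fold and 1.93-fold above the other arrays. Among 19 measured genes of other uptake signals and receptors, 0 were raised, and their median was 0.00. Of 29 measured genes that make or transfer sialic acid, the Siglec ligand, 1 was raised, the sialyltransferase gene *St6galnac3* (2.05%, 1.1% not well above background, 1.32% and 7.19%). Over untreated *Prestin*-*hDTR* mice 1 was lowered, as were 303 of all 21431 genes compared. This gene was *St8sia2* (at least 2.02-fold), named after its values were seen. The median of the list was -0.15.

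Some macrophage markers moved with *Sirpb1* and *Cd33*. Of 12 such genes, 11 were measured (*Cd163* was not well above background), and 5 were raised 2-fold or more over each of the other 3 arrays, where 1.22% of all genes were: *Cd68*, *Adgre1*, *Cd14*, *Mpeg1* and *Lyz2*. *Lyz2*, which encodes lysozyme, was 4.28-fold above untreated *Prestin*-*hDTR* mice, and *Mpeg1*, which encodes perforin-2, was 3.21-fold above. *Itgam*, which encodes an integrin chain of myeloid cells and is named after its values were seen, went the other way, with log2 ratios of -0.24, -0.35 and -0.75 over untreated *Prestin*-*hDTR*, DT-treated wild-type and untreated wild-type mice. The list's summed level was 2977% and 2609% in wild-type mice without and with DT, and 2390% and 3996% in *Prestin*-*hDTR* mice without and with DT, and its brightest gene, *Csf1r*, the receptor for macrophage colony-stimulating factor, was 1.53-fold above untreated *Prestin*-*hDTR* mice. Of 6 resident microglia-type markers, 1 was raised against the same share of all genes, *Fcrls* (2.24-fold over untreated *Prestin*-*hDTR* mice), with summed levels of 922.4%, 873.7%, 882.7% and 1189%. The part of macrophage markers in the *Sirpb1*, *Cd33* and adaptor ratios was not tested.

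Markers of other blood cells were summed in the same way. The 10 neutrophil markers summed to 3799% and 5936% in wild-type mice without and with DT, and 1373% and 2265% in *Prestin*-*hDTR* mice without and with DT, with *S100a9* the brightest. They had a median log2 ratio of 0.70 over untreated *Prestin*-*hDTR* and -1.43 over DT-treated wild-type mice. The part of neutrophil markers in the *Sirpb1* and *Cd33* ratios was not tested. B cell markers (8 measured, *Vpreb3* the brightest) summed to 103.5%, 242.9%, 87.4% and 103.9%, and erythroid markers (8 measured, *Hbb-bt* the brightest) to 3990%, 6158%, 4478% and 5307%. Plasmacytoid dendritic cell markers, which *Siglech* is grouped with, had a median of 0.82 over untreated *Prestin*-*hDTR* and -0.13 over DT-treated wild-type mice. Of 8 genes 7 were measured, and 5 were higher over untreated *Prestin*-*hDTR* mice. *Pacsin1* (log2 ratio -0.08) and *Ccr9* (-0.28, named after its value was seen) were lower. The list summed to 1692%, 1633%, 1514% and 1804%. Much of this was *Pacsin1*, the brightest, at 899.2%, 858.3%, 825.7% and 783.4%, so that the sums do not measure these cells. Supporting cell markers had a median of -0.05 and inner hair cell markers of -0.63 over untreated *Prestin*-*hDTR* mice. OHC markers, at -2.57, summed to 2279%, 2122%, 2322% and 454.6%.

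**Figure D5:**
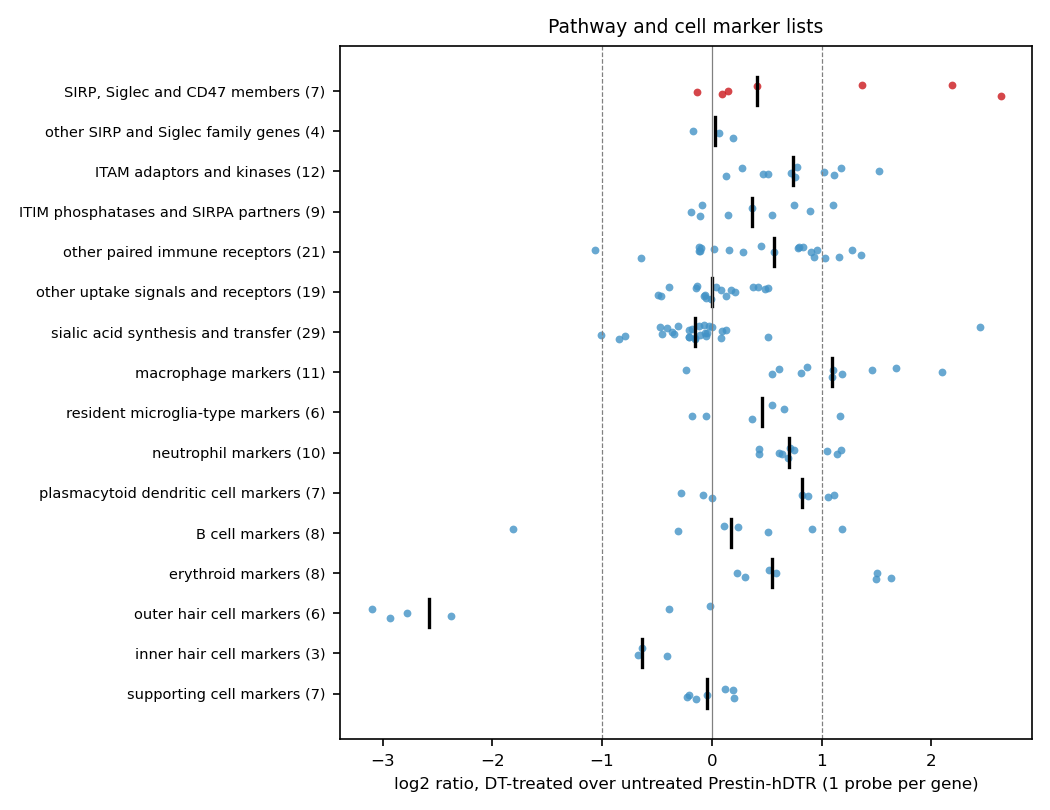
Log2 ratio of DT-treated over untreated *Prestin*-*hDTR* mice for the genes of each list (points, 1 probe per gene, number measured in brackets) with the median of the list (black bar) and dashed lines at 2-fold. The medians are 0.41 for the members, 0.74 for the activating adaptors and kinases, 1.09 for macrophage markers and -2.57 for OHC markers.

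The genes whose readings over the 4 arrays were most like those of *Sirpb1b* and *Cd33* were taken from 18232 genes measured on all 4 arrays, by the root mean square difference between log2 profiles centred on their own means. For *Sirpb1b* (A_55_P2033041) these were *Gm10433* (0.18), *Sirpb1a* (0.18), *Ccr2* (0.20), *Ddx43* (0.24) and *Lgals3* (0.26). *Ccr2* encodes a chemokine receptor of monocytes and was 6.02-fold above untreated *Prestin*-*hDTR* mice, and *Lgals3*, which encodes galectin-3, was 6.18-fold above. These are array values, and the authors reported that qRT-PCR detected neither *Gm10433* nor *Ddx43* and showed no significant rise of *Ccr2*. For *Cd33* they were *Hsd17b6* (0.04), *Ptprn2* (0.05), *Ms4a7* (0.05), the transcript CB840983 (0.06) and a probe without a gene name. *Ms4a7*, a membrane protein of macrophages, was 2.65-fold above untreated *Prestin*-*hDTR* mice. Within 0.25 lay 4 genes for *Sirpb1b* and 179 for *Cd33*, so that the *Cd33* profile was shared by many genes.

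Promoter sequence was looked at for members that moved together. RefSeq sequences of GRCm38.p6, from 250 bases before to 50 after each gene's start, were found for 6 of the 8 members, and for *Sirpb1c*. Without gaps, *Sirpb1a* and *Sirpb1b* were identical at 198 of 207 overlapping bases, *Sirpb1a* and *Sirpb1c* at 237 of 248, and *Sirpb1b* and *Sirpb1c* at 254 of 259, with annotated starts that differ by 41 to 93 bases. Short motifs were searched on both strands: AGGAAGT, bound by PU.1 and other ETS factors, TTGCNNNAA for C/EBP factors and GAAANNGAA for interferon response factors. All 3 *Sirpb1* promoters hold AGGAAGT once, on the opposite strand to the gene, as do 9.35% of 32851 promoters. The 30 bases around it are shown, with the match in capitals, to make the similarity of the paralogs visible.
*Sirpb1a*, chr3:15426465-15426494 on GRCm38, minus strand: taagtcacaatACTTCCTttctctacatgt
*Sirpb1b*, chr3:15575016-15575045 on GRCm38, minus strand: gcagaacaagtcacaatACTTCCTttctct
*Sirpb1c*, chr3:15848473-15848502 on GRCm38, minus strand: caagtcacaatACTTCCTttctctacgtgt
The match begins at -56, 37 and -4 relative to the annotated starts, so that its place in the gene differs with the annotation. GAAANNGAA occurs in *Sirpb1a* and *Sirpb1b* (8.56% of all promoters hold it), and TTGCNNNAA in *Siglech* (9.56%). None of these motifs occurs in the windows of *Cd33*, *Siglece* or *Cd47*. A match is a description of the sequence only.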

How the data were processed

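The authors pooled RNA of each group, labelled it with Cy3, hybridised 1 array per group and deposited the scanner output of Agilent Feature Extraction 11.5.1.1. The deposited intensity is on a linear scale, background-subtracted but not scaled between arrays, and the spot errors are the software's own. A deposited series table of scaled intensity served as an alternative.

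Of 44397 features per array, control and outlier spots (149 to 228) were left out, and spots of a probe were averaged. Arrays were divided by their 75th percentile (2728 to 3162 intensity units) before log2 was taken. From 62.2% to 70.6% of probes were well above background, and repeated spots had a median SD of 0.06 to 0.07 (log2). For lists, a gene was represented by its brightest probe that was clearly above background on any array. Gene names came from RefSeq by symbol (29803 probes), accession (1635) or synonym (295), and 7696 kept the file's name.

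The members, the 16 gene lists, the 8 preset alternatives and the naming rule were chosen with earlier results of these data known. By that rule the text names all member probes, genes of the 2 signalling lists and of the SIRP and Siglec families, genes of other lists raised or lowered over each of the other 3 arrays with the brightest gene of each list, and the 5 nearest profiles of *Sirpb1b* and *Cd33*. Steps were tested on simulated data, with changes planted only in brighter probes well above background on every array. The calling of changes in dim probes, such as those of *Sirpb1* and *Cd33*, was therefore not tested. R 4.3.3 with limma 3.58.1 and Python 3.11.15 with numpy 2.4.6, pandas 2.3.3 and matplotlib 3.10.9 were used. With 1 array per group no test was made. Protein features were not analysed here, and some genes that the rule would name are not reported here.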

Additional observations from a re-analysis of the deposited data

Results flagged for a closer look

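The log2 ratio of DT-treated over untreated mice had opposite signs in the 2 genotypes for 2 member probes, with a gap of more than 2 combined spot errors. For *Cd33* (A_66_P109986) the ratio was 1.37 ± 0.22 in *Prestin*-*hDTR* and -0.19 ± 0.25 in wild-type mice, a difference of 1.57. For the dim *Cd47* probe A_55_P2046822 it was -0.92 in *Prestin*-*hDTR* and 0.64 in wild-type mice, a difference of -1.56, and the first ratio is a bound because its signal with DT was too close to background. With 1 array per group these differences were not tested.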

How the results depend on the processing

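The 8 preset alternatives changed the background correction (normexp), the scaling (quantile, or the percentile of probes well above background on all 4 arrays), the filter, the floor for dim signals, the source of the values (the deposited series table) or the outlier spots. Member ratios of 2-fold or more were recomputed 100 times over these alternatives, and all 100 kept their sign. Over each of the other 3 arrays, 3 member probes were raised under every alternative but normexp, under which 2 were (without *Cd33*), and *Sirpb1b* A_55_P2033041 then was 3.27-fold above untreated *Prestin*-*hDTR* mice against 6.19-fold. Under normexp 2 rather than 4 members were raised over untreated wild-type mice. Between untreated *Prestin*-*hDTR* and wild-type mice, 0 were raised under normexp or the stricter filter and 0 were lowered under normexp, quantile scaling or that filter. Without the floor, 1 member (the dim *Cd47* probe) was lowered against untreated *Prestin*-*hDTR* mice. With the stricter filter 0 genes of sialic acid synthesis and transfer were raised, as *St6galnac3* was then not compared. Other counts of members and list genes stayed within 1.5 times. Among all probes, those raised over each of the other 3 arrays numbered 271, against 165 under normexp, 109 with the stricter filter and 417 without the floor. Over untreated *Prestin*-*hDTR* mice, 700 probes were raised and 378 lowered in DT-treated *Prestin*-*hDTR* mice, against 372 and 157 under normexp, 291 and 163 with the stricter filter, and 700 and 1253 without the floor, where the balance turned. It also turned over DT-treated wild-type mice under normexp (359 and 464 against 329 and 242), and between DT-treated and untreated wild-type mice under normexp (390 and 291 against 175 and 236) and without the floor (450 and 708). Over untreated wild-type mice, 525 and 522 became 609 and 1104 without the floor, and between the untreated mice of both genotypes 286 and 658 became 653 and 737. No paired analysis was possible because each group has 1 array. Signals close to background limit the *Sirpb1* and *Cd33* ratios, with spot errors of 10.5% to 43.6%.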
